A study of Mus musculus with 4 samples.

Results

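Tbx21, Ncr1, Hes1, Gzma and Gzmb were followed in sorted intestinal group 3 innate lymphoid cells (ILC3s) after stimulation of death receptor 3 (DR3). They were chosen by gene symbol, as genes of the program of natural cytotoxicity receptor-positive (NCR+) ILC3s and of cytotoxic granules, and are 5 of the 2179 genes in the deposited table. All cells came from littermates of the Rag1-/- background carrying 1 GFP reporter allele that marks ILC3s, and which lack mature T and B cells because Rag1 is deleted. Both groups carried these alleles, and the labels give no age. 1 group received 1 µg of a-DR3, the agonistic antibody 4C12 (here α-DR3), and the other PBS. Lineage-negative GFP-positive cells were sorted on day 3 from lymphocytes of the large intestinal lamina propria, with 2 libraries per group, each made by the authors from the pooled cells of several mice.

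ILC3s guard mucosal barriers mainly through IL-22. A subset of them acquires T-bet, the product of Tbx21, which directs lymphocytes towards a type 1 program and is needed for the NCR+ subset, and this subset displays NKp46, the activating receptor encoded by Ncr1. Notch signaling favors the NCR+ subset, and Hes1, a transcriptional repressor, is a classical Notch target. Granzyme A, a trypsin-like protease, and granzyme B, which cleaves after aspartate, are stored in cytotoxic granules and enter target cells with the help of perforin.

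The deposited values are the authors' mean FPKM of each group, that is, fragments of a gene scaled to transcript length and to the mapped fragments of the library. Each group is therefore a single value per gene. Neither the spread between the duplicate libraries nor their depth can be read from these values, and values of single libraries were not used here, so each difference stands without an error or a test. The authors listed only genes that passed their own comparison, with p-values up to 0.0498, and with the larger group mean at 1.005 FPKM or more. Each listed gene therefore had to differ, and the levels of genes outside this list were not analysed here. Direction and size of a difference are described below, with a ratio of means of 1.5 as the limit that the study used. In bulk RNA, fewer cells of a type and less RNA per cell cannot be told apart.

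The upstream sequences of the members are shown because 3 members with matches to the same RUNX letters include both granzymes, which had higher means, and Ncr1, which had a lower mean after α-DR3. Of the 5 members, 4 matched an entry of the RefSeq promoter table (GRCm38.p6), and Hes1 did not. The 250 bases before the RefSeq start are printed 5′ to 3′ on the strand of the gene, with Gzma at chr13:113100982-113101231 (minus strand), Gzmb at chr14:56262335-56262584 (minus strand) and Ncr1 at chr7:4337465-4337714 (plus strand). Capitals mark matches on either strand to a RUNX motif (TGTGGT), a T-box motif (GTGTGA), an AP-1 motif (TGANTCA) or an RBPJ motif (TGGGAA), RBPJ being the DNA-binding factor of the Notch pathway.
Gzma: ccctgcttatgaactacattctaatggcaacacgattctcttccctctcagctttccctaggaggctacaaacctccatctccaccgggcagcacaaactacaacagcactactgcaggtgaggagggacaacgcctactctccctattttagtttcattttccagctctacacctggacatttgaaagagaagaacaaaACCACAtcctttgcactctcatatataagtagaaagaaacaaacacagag
Gzmb: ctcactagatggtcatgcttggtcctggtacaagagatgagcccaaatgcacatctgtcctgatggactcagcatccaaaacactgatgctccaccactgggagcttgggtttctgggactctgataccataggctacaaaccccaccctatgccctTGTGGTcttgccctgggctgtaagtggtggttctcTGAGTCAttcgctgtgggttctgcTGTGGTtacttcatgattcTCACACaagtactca
Ncr1: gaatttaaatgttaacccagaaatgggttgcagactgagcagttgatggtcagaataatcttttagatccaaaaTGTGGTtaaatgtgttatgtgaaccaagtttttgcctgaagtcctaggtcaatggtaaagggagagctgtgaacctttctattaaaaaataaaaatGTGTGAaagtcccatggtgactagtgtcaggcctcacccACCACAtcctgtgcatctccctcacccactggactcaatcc

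The RUNX letters occurred in 3 of the 4 upstream windows. They stood in Gzmb 93 to 88 and 34 to 29 bases before the start, in Gzma 50 to 45 bases before it on the reverse strand, and in Ncr1 176 to 171 bases before it and, on the reverse strand, 41 to 36. The same letters occurred in 14.2% of 27025 mouse promoter windows of this length, and in 12.4% of the 1668 windows of listed genes. The T-box letters, which T-bet can bind, were found in Ncr1 80 to 75 bases before the start and in Gzmb 15 to 10 bases before it on the reverse strand, and in 12.2% of all windows. So neither the RUNX nor the T-box letters separated the granzymes from Ncr1. The Gzmb window also held the palindromic AP-1 letters 58 to 52 bases before the start, and 6.85% of all windows held those letters. In Tbx21 the only match was to the RBPJ letters, 177 to 172 bases before the start on the reverse strand, and 21.5% of all windows held those letters. Apart from the palindrome, which matches on both strands, no match overlapped another in these windows. These are matches of letters and not shown to be bound sites.

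The 5 members split by direction along their roles. The transcription factor genes Tbx21 and Hes1 and the receptor gene Ncr1 had lower means in ILC3s from α-DR3-treated mice, and the granzyme genes Gzma and Gzmb had higher means. The sum of Tbx21, Ncr1 and Hes1 was 607.9 FPKM with PBS and 342.1 FPKM with α-DR3, a ratio of 0.563, and the sum of Gzma and Gzmb was 563.6 and 1089 FPKM, a ratio of 1.93. All 5 members were at least 1.5-fold apart, as were 75.4% of all listed genes. The 2 higher members compare with 37.1% of listed genes at least 1.5-fold higher, and the 3 lower members with 38.4% at least 1.5-fold lower, so a share of members on either side near these values is what the list itself gives.

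**Figure D1:**
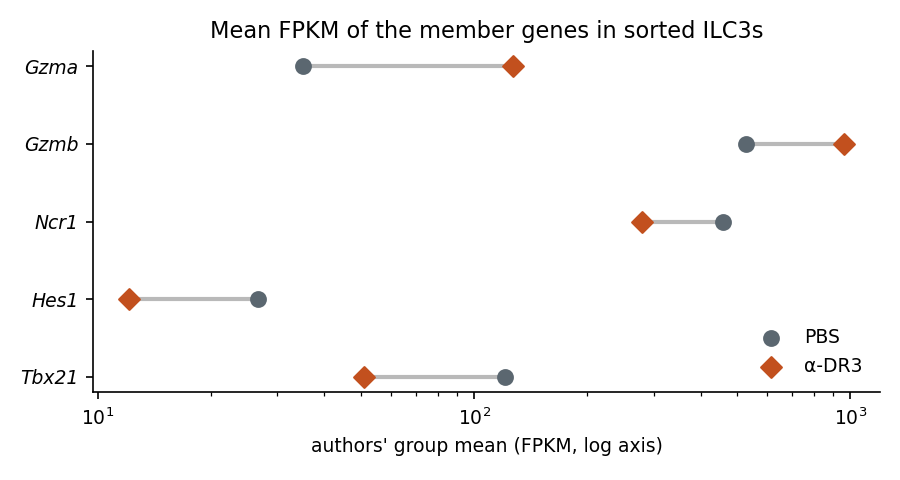
Authors' mean FPKM of each member gene (horizontal log axis) in ILC3s from PBS-treated mice (grey circles) and α-DR3-treated mice (orange diamonds), joined by a line for each gene, drawn without error bars because the values are group means. Gzma and Gzmb lie further right with α-DR3, at 126.8 and 962.3 FPKM, and Ncr1, Hes1 and Tbx21 lie further left, at 279.0, 12.1 and 51.0 FPKM.

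Tbx21 (ENSMUSG00000001444.2, GRCm38 chr11:97098071-97115331, minus strand) had a mean of 121.2 FPKM with PBS and 51.0 FPKM with α-DR3. The PBS mean was 2.38-fold higher, and on the log2(FPKM + 1) scale the difference of α-DR3 minus PBS was -1.23. This was the lowest difference of the 5 members and the 40th lowest of all listed genes. By level, Tbx21 went from place 137 to place 352 among the 2179 listed genes.

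Hes1 (ENSMUSG00000022528.7, chr16:30064384-30067796, plus strand) was the member with the lowest level in both groups. Its mean was 26.6 FPKM with PBS and 12.1 FPKM with α-DR3, 2.20-fold lower with α-DR3, and the log2 difference was -1.08. The ratio of Tbx21 to Hes1 was 4.55 with PBS and 4.22 with α-DR3, so the means of these transcription factor genes were lower by nearly the same factor.

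Ncr1 (ENSMUSG00000062524.3, chr7:4337724-4345164, plus strand) stayed a high-level gene. Its mean was 460.2 FPKM with PBS and 279.0 FPKM with α-DR3, or 60.6% of the PBS mean, with a log2 difference of -0.72. Tbx21 kept 42.1% and Hes1 45.4% of their PBS means. The ratio of Ncr1 to Tbx21 was 3.80 with PBS and 5.47 with α-DR3, and that of Ncr1 to Hes1 17.3 and 23.1, so the receptor gene had the smaller proportional difference of the 3 lower members. In absolute terms its difference, 181.2 FPKM, was the largest of them, against 70.2 FPKM for Tbx21 and 14.5 FPKM for Hes1.

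Gzma (ENSMUSG00000023132.6, chr13:113093825-113100981, minus strand) had the largest proportional difference of the 5 members. Its mean was 35.2 FPKM with PBS and 126.8 FPKM with α-DR3, 3.60-fold higher, with a log2 difference of 1.82 that was the 57th highest of all listed genes. Gzmb (ENSMUSG00000015437.4, chr14:56258838-56262260, minus strand) already had the highest level of the members with PBS, 528.5 FPKM, and reached 962.3 FPKM with α-DR3. This was 1.82-fold higher, with a log2 difference of 0.86, the 374th highest. Gzmb was higher by 433.8 FPKM and Gzma by 91.6 FPKM, so most of the added granzyme signal of the pair came from Gzmb. The ratio of Gzmb to Gzma was 15.0 with PBS and 7.59 with α-DR3.

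FPKM is per length, so levels can be set side by side between genes. With PBS the order was Gzmb, Ncr1, Tbx21, Gzma and Hes1, and with α-DR3 it was Gzmb, Ncr1, Gzma, Tbx21 and Hes1. Gzma and Tbx21 thus exchanged places, and the ratio of Gzma to Tbx21 went from 0.290 to 2.49. Gzmb and Ncr1 were close with PBS, at a ratio of 1.15, and apart with α-DR3, at 3.45. Whether neighbors in these orders differ beyond the spread between libraries cannot be judged from group means. Across the split, the ratio of Gzmb to Tbx21 was 4.36 with PBS and 18.9 with α-DR3, that of Gzmb to Hes1 19.8 and 79.6, that of Gzma to Hes1 1.32 and 10.5, and that of Ncr1 to Gzma 13.1 and 2.20. These ratios within a group do not depend on how the groups were scaled against each other.

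**Figure D2:**
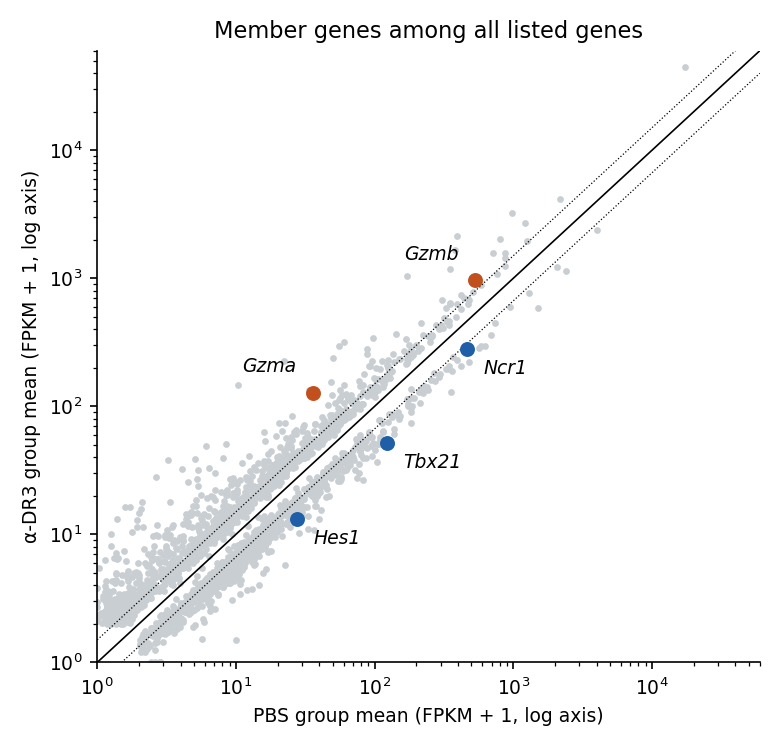
Authors' group means (FPKM + 1, log axes) of all 2179 listed genes (grey) with α-DR3 against PBS, with the granzyme members in orange and the other members in blue. The solid line marks equal means and the dotted lines a ratio of 1.5, and the members lie outside the dotted lines, Gzma and Gzmb above and Ncr1, Tbx21 and Hes1 below.

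The scaling between groups bears on the sizes. The FPKM values of all listed genes had a median ratio of α-DR3 to PBS of 1.31 (0.39 on the log2 scale), and their sums had a ratio of 1.41 (0.50). Without Il22, the gene with the highest mean, the ratio of sums was 1.19 (0.25). All these factors rest on genes listed because they differed. They describe a gene relative to the list and cannot serve as a neutral normalization between groups. Relative to the median ratio or the sum, no member changed direction, but Gzmb stood at 0.48 and 0.37 on the log2 scale, inside the 1.5-fold limit, whereas Gzma stayed outside it. Relative to the sum without Il22, a setting chosen after seeing the data, Gzmb stood at 0.61, just outside the limit. Across all scalings and pseudocounts tried, the log2 differences ranged from 1.33 to 1.85 for Gzma, from 0.37 to 0.86 for Gzmb, from -1.21 to -0.71 for Ncr1, from -1.53 to -0.89 for Hes1 and from -1.72 to -1.17 for Tbx21.

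**Figure D3:**
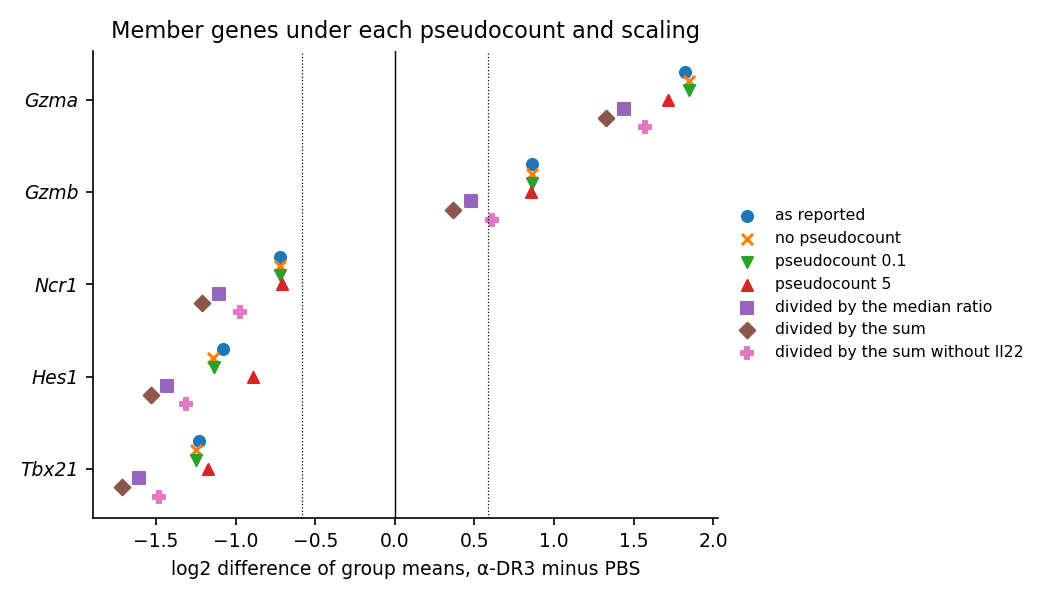
Log2 difference of group means (α-DR3 minus PBS) of each member under 3 pseudocounts, with no pseudocount, and after division of each group by the median ratio of the listed genes or by their sum with or without Il22. The dotted lines mark 1.5-fold, and Gzmb lies between them by the median ratio (0.48) and the full sum (0.37) and just outside without Il22 (0.61), while the other members stay outside.

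The whole granzyme family was examined, since its genes on chromosome 14, Gzmb among them, lie close together and are alike in sequence. Of its 10 genes 5 were listed, all at least 1.5-fold higher with α-DR3, where 37.1% of all listed genes were, with a median log2 difference of 1.67 against 0.36 for all listed genes. Gzmc had 389.7 FPKM with PBS and 2155 FPKM with α-DR3, 5.53-fold higher, and with α-DR3 its level was above that of Gzmb. Gzme had 3.58 and 13.5 FPKM and Gzmd 1.83 and 6.31 FPKM, both at low levels. The listed granzymes together had 958.7 and 3263 FPKM, a ratio of 3.40, and made up 0.880% and 2.12% of the summed FPKM of all listed genes. Gzmf, Gzmg, Gzmk, Gzmm and Gzmn were not listed.

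Whether reads of Gzmb could be taken for those of a relative was checked on the annotated transcripts. The coding sequence of Gzmb was identical to that of Gzmc over 75.7% of alignment columns, gaps included, and to that of Gzma over 52.4%. The longest run that Gzmb and Gzmc share is 49 coding bases within an exon of each, bases 352 to 400 of the Gzmb coding sequence (GRCm38 chr14:56260382-56260430, minus strand; chr14:56232439-56232487 in Gzmc), shown as the stretch over which these genes are hardest to tell apart.
Gzmb and Gzmc: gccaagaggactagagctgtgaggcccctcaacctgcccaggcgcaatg
None of the 1387 stretches of 50 bases in Gzmb transcripts, and none of the 1004 in Gzma transcripts, was found in a transcript of another gene, and the same held for Tbx21, Ncr1 and Hes1. By contrast, 4.14% of such stretches in Gzmc, 21.9% in Gzmd and 20.6% in Gzme were shared with other granzyme genes, so the values of Gzmd and Gzme in particular are uncertain. The check asked for exact identity only. Reads placed with mismatches were not covered, and the run of 49 bases shared by Gzmb and Gzmc lies just under its length. No annotated gene overlapped any of the 5 members.

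The 4 listed genes within 500 kb of Gzmb all had higher means with α-DR3, as had 1190 of the 2179 listed genes, and 3 of them are granzyme genes. They were Gzmc at 27.6 kb, Gzmd at 129.7 kb, Gzme at 141.6 kb and Mcpt8, a basophil protease gene with 0.375 and 1.49 FPKM, at 177.0 kb, out of 47 annotated neighbors. Around the other members the listed neighbors were fewer. Tbx21 had 3 of 42, of which 1 was lower and Mrpl45 and Nfe2l1 were higher, by 1.34 and 1.36 times. These ratios lie between the median ratio of 1.31 and the ratio of sums of 1.41 over all listed genes. The direction of both genes relative to the list thus differs between these scalings. Ncr1 had only Eps8l1 (3.76 and 7.18 FPKM) of 61, Gzma only the phosphatase gene Plpp1 (9.91 and 14.0 FPKM, under its older symbol Ppap2a) of 31, and Hes1 none of 20. The lower means of Ncr1 and Hes1 thus had no listed neighbor in the same direction.

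Some genes that work with granzymes were listed in either direction. Of 16 cytotoxic granule partners 6 were listed, 4 at least 1.5-fold higher and 2 at least 1.5-fold lower, with a median log2 difference of 0.90 against 0.36 for all listed genes. This median was 0.52 relative to the median ratio and 0.41 relative to the sum, inside the 1.5-fold limit. The background shares of 37.1% higher and 38.4% lower apply here too, and with 6 genes these counts are only a description. Prf1, which encodes the pore-forming perforin, had 48.1 FPKM with PBS and 122.4 FPKM with α-DR3, 2.54-fold higher. Rab27a, needed for granule docking, had 45.2 and 101.7 FPKM, Cst7, an inhibitor of granule cathepsins, 35.9 and 72.5 FPKM, and Stx11, a syntaxin of granule release, 59.2 and 104.8 FPKM. The death ligand genes Fasl, with 74.1 and 26.4 FPKM, and Tnfsf10, which encodes TRAIL, with 14.5 and 8.07 FPKM, had lower means, in the direction of Tbx21 and Ncr1.

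Ncr1 was accompanied by other receptor genes shared with natural killer cells. Of 32 symbols on that list 9 were listed, and all 9 were at least 1.5-fold apart (75.4% of all listed genes), 8 lower (38.4%) and 1 higher (37.1%), with a median log2 difference of -0.80 against 0.36 for all listed genes. Klrk1, which encodes NKG2D, had 477.1 FPKM with PBS and 274.4 FPKM with α-DR3, and Hcst, which encodes its signaling adaptor DAP10, had 389.3 and 230.8 FPKM. Cd160 had 345.1 and 205.6 FPKM, Klrd1 (CD94) 149.2 and 78.7 FPKM, and Klrb1c (NK1.1) 103.4 and 49.97 FPKM. The lowest differences were those of the adhesion receptor gene Cd226, with 129.9 and 50.03 FPKM, and of Klrb1a, with 9.63 and 3.10 FPKM. Klrg1, an inhibitory receptor gene at a low level that is also on the ILC2 list below, was the exception, with 4.38 and 10.9 FPKM. The 9 genes, Ncr1 included, summed to 2068 FPKM with PBS and 1183 FPKM with α-DR3, a ratio of 0.572.

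The listed genes of the type 1 program had both directions. Of 20 genes 9 were listed, 6 higher and 3 lower, of which 3 and 2 were past 1.5-fold, and the median log2 difference was 0.52. These counts are near or below the background of 37.1% higher and 38.4% lower, and the median was 0.14 relative to the median ratio and 0.03 relative to the sum. Beside Tbx21, the lower genes were Cxcr3, a chemokine receptor gene, with 32.3 FPKM with PBS and 10.0 FPKM with α-DR3, and Il18r1, a subunit gene of the IL-18 receptor, with 127.2 and 85.8 FPKM. Among the higher genes, the chemokine gene Ccl5 had 9.19 and 24.0 FPKM and Zeb2 1.495 and 5.31 FPKM. Runx3, whose product binds the RUNX letters shown above, had 63.7 and 86.5 FPKM, 1.36-fold higher, within the 1.5-fold limit. Relative to the median ratio of 1.31 Runx3 was higher, and relative to the ratio of sums of 1.41 it was lower. Ccl3 and Irf8 were also higher within that limit. Ifng, Il12rb2, Eomes and 8 further genes of this list were not listed.

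Around Hes1, listed genes of the Notch pathway had both directions. Of 39 genes 10 were listed, 5 higher and 5 lower, of which 4 and 3 were past 1.5-fold, near the 37.1% and 38.4% of all listed genes, and the median log2 difference of 0.02 turned negative under each scaling. Hes1 had the lowest difference of the 10 on the log2(FPKM + 1) scale, although by plain ratio Aph1b, at a low level, was further apart (3.64-fold against 2.20-fold). Other genes of Notch target repressors, Heyl with 2.12 FPKM with PBS and 3.53 FPKM with α-DR3 and Hey1 with 1.22 and 2.21 FPKM, had higher means at low levels. The ligand gene Dll1 had 25.4 and 62.2 FPKM and the receptor gene Notch2 24.0 and 47.8 FPKM. Of the receptor-cleaving protease genes, Adam17 had 18.8 and 27.6 FPKM and Adam10 21.9 and 15.3 FPKM. Maml2, a coactivator gene, had 6.77 and 3.76 FPKM, and Numb, an inhibitor gene, 12.2 and 8.19 FPKM. Aph1b, a γ-secretase subunit gene, was near the limit of the list with 1.11 and 0.305 FPKM.

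**Figure D4:**
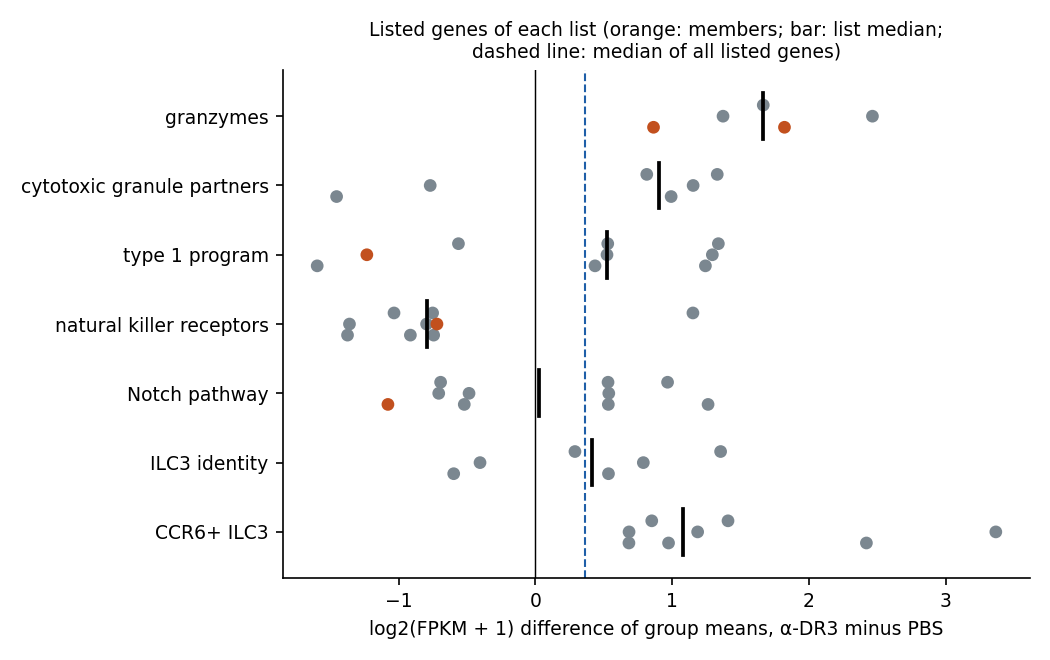
Difference of group means on the log2(FPKM + 1) scale (α-DR3 minus PBS, horizontal axis) of each listed gene of 7 gene lists, with member genes in orange, a black bar at the median of each list and a dashed line at the median of all listed genes, 0.36. The granzymes lie to the right of 0 with a median of 1.67, and 8 of 9 natural killer receptors lie to the left with a median of -0.80.

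For each member, the listed genes of most similar level were found by the Euclidean distance of log2(FPKM + 1) over the 2 group means, which describes a pattern of only 2 values. Nearest to Tbx21 were Cd226 (distance 0.104), the costimulatory ligand gene Tnfsf9 (0.158) and Osgin1 (0.170). Nearest to Ncr1 were Klrk1 (0.0572), Bcl2a1d, an antiapoptotic gene (0.0586), and the repressor gene Tgif1 (0.299). Cd226 and Klrk1 are both genes of the natural killer receptor list. Hes1 was nearest to Ipcef1 (0.0252), Rmdn2, listed as Fam82a1 (0.0965), and Slc9a9 (0.104). Gzma was nearest to the tetraspanin gene Cd81 (0.115), then Prf1 (0.444) and Rab27a (0.473), the latter both from the granule list. Gzmb, in a sparse range of high levels, was nearest to Cyba (0.195), Gpx4 (0.303) and Plscr1 (0.495).

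The sorted cells carried the ILC3 cytokine transcript Il22 in both groups. Il22 had the highest mean of all listed genes in each group, 17424 FPKM with PBS and 44537 FPKM with α-DR3. Of 19 ILC3 identity genes 6 were listed, 4 higher and 2 lower, with a median log2 difference of 0.41 (-0.065 relative to the sum of listed genes). Tnfrsf25, the gene of DR3, had 114.5 and 140.1 FPKM, 1.22-fold higher, but lower relative to the median ratio and to the full sum. Il22 thus had the direction of the granzymes. Markers of CCR6+ ILC3s, a subset that lacks NKp46, had the direction opposite to Ncr1. Of 9 such genes 8 were listed and all 8 were at least 1.5-fold higher with α-DR3, where 37.1% of all listed genes were, with a median log2 difference of 1.08. That count is without rescaling, and the median was 0.70 relative to the median ratio and 0.59 relative to the sum. The largest ratios were those of Tnfsf4, which encodes OX40L (21.1 and 226.4 FPKM), and Ccr7 (54.2 and 294.5 FPKM), and Ccr6 had 29.5 and 68.3 FPKM and Nrp1 8.16 and 23.3 FPKM. The study reported more OX40L on all ILC3 subsets after α-DR3, and a change of CCR7 protein that did not match its mRNA. Tnfsf4 and Ccr7 therefore need not track the CCR6+ subset here. The sum of the 8 genes was 998.3 and 2142 FPKM. Their part in the differences of Tbx21, Ncr1 and Hes1 was not tested.

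Natural killer cells and type 1 ILCs also use Tbx21, Ncr1 and granzymes. Of 11 markers of these cells 4 were listed, Prf1 higher and Klrb1c, Tnfsf10 and Itga1 (9.54 FPKM with PBS and 3.90 FPKM with α-DR3) lower, with a sum of 175.5 and 184.3 FPKM. Eomes and Itga2, which mark natural killer cells, were not listed, and the listed Itga1 is a marker of type 1 ILCs. The marker counts that follow stand beside 1190 higher genes among all 2179 listed, with 37.1% at least 1.5-fold higher and 38.4% at least 1.5-fold lower. Of 13 macrophage and monocyte markers 7 were listed, all 7 at least 1.5-fold higher with α-DR3, with a sum of 9.64 and 57.9 FPKM, of which Lyz2 had 4.09 and 37.9 FPKM. Dendritic cell markers had 4 of 10 listed, all higher, with a sum of 76.5 and 166.5 FPKM. Most of that sum came from Zbtb46 (42.3 and 71.4 FPKM) and Batf3 (31.9 and 56.4 FPKM), while Ccl17 had 2.22 and 37.1 FPKM and Ccl22 0.13 and 1.535 FPKM. Itgax, Flt3, Xcr1 and Clec9a were not listed. Fibroblast markers had 5 of 6 listed, all higher, with a sum of 6.58 and 16.6 FPKM. These sums were below the level of Gzmb in each group, and that of the dendritic cell markers was above the level of Gzma in each group. Each sum depends on which markers were listed and does not measure granzyme RNA from those cells. All 3 sums had the direction of Gzma and Gzmb, and the part of other cells in the granzyme values was not tested. The lineage markers that the study names for its flow cytometry were CD3, B220, CD11b and CD11c. From T cells only Cd28 (20.5 and 8.77 FPKM), from B and plasma cells only Cd79b (10.9 and 27.2 FPKM), from mast cells and basophils only Mcpt8, from granulocytes only Retnlg (listed at 0 with PBS and at 1.16 FPKM with α-DR3), and from epithelial cells 0 of 8 markers were listed. Of 13 markers of ILC2s 7 were listed, 6 higher, Klrg1 among them, and 1 lower, with a sum of 18.2 and 50.9 FPKM. Of 12 genes of the response to tissue dissociation only Junb (4051 and 2370 FPKM) and Zfp36 (2390 and 1141 FPKM) were listed, both lower with α-DR3 as were Tbx21, Ncr1 and Hes1, and their part in those differences was not tested.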

How the data were processed

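mRNA of ILC3s (Lin-GFP+) from PBS-treated and α-DR3-treated mice was sequenced with 2 libraries per group. Per the submitters' processing notes and the study's methods, the authors used STAR 2.5, RSEM 1.2 and edgeR 3.18.1 on GRCm38.p5. The authors deposited 1 table of 2179 genes, with the mean FPKM of each group and, from their edgeR comparison, a log2 fold change, a log2 mean CPM, a likelihood ratio score, a p-value and an FDR. The authors' log2, score, p-value and FDR columns were not used, except the largest p-value, which shows the selection of genes (p under 0.05 and a mean FPKM over 1). The deposited column named wt was taken as the PBS group. The planned fits per library were not made, since the deposited table holds group means, and values of single libraries were not used here. Depth is not known from the means.

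Ratios of group means and differences of log2(mean FPKM + 1) were computed. Some genes are not reported here. The pseudocount understates differences of low genes. Named genes are the 5 members, the listed genes of the gene lists, the 3 listed genes nearest each member, and listed genes within 500 kb of its start. The members and lists were chosen with earlier results of these data known, and the motif letters with the promoters in view. 5 symbols that had turned into dates were restored from identifiers, and 2149 identifiers were matched in GENCODE M21 (GRCm38), which gave coordinates and transcripts. Coding sequences were aligned globally with Biopython 1.88. The scripts were tested on simulated data. Other pseudocounts, no pseudocount, division by the median ratio or the sum, division by the sum without Il22 (added after seeing the data), a fold limit of 2 and a filter at 5 FPKM were tried. Computation used pandas 2.3.3 and numpy 2.4.6 in Python 3.11.15, and matplotlib 3.10.9 for plots.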

Additional observations from a re-analysis of the deposited data

How the results depend on the processing

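Results were compared by direction and by side of the 1.5-fold limit, since group means give no spread. Of the alternative values of the members, 28 kept both, and the 2 exceptions were those of Gzmb, whose log2 difference of 0.86 was 0.48 after division by the median ratio and 0.37 after division by the sum. In the same order, the median of the cytotoxic granule partners was 0.52 and 0.41, that of the fibroblast markers 0.58 and 0.51 (and 0.28 with a pseudocount of 5), and that of the Notch pathway turned to -0.31 and -0.37, to -0.49 among genes over 5 FPKM, and to -0.22 after division by the sum without Il22, a setting added after seeing the data. The median of the ILC3 identity genes turned to -0.065 after division by the sum. The other 74 alternative medians kept direction and side. The count of listed genes at least 1.5-fold higher was 808, and it was 446 with a limit of 2, 517 among genes over 5 FPKM and 460 after division by the median ratio. The count lower was 836, and it was 257 with a limit of 2 and 986 after division by the median ratio, so that scaling turned a split of 808 higher and 836 lower into one of 460 and 986. No paired analysis was possible because the result rests on the deposited table, which holds 1 mean per group, and values of single libraries were not used here, and leaving out a library was not run for the same reason. The unknown depth leaves low values, such as those of Gzmd, Heyl and Hey1, without a counting error.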
